A study of Homo sapiens with 9 samples.

Results

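The RNAs described here are those of the mitochondrial genome, taken as every gene of the deposited table whose symbol starts with MT-. They number 30 of 30956 genes and comprise 13 mRNAs, 2 rRNAs and 15 tRNAs by the table's own biotype. They were measured in RNA immunoprecipitation sequencing (RIP-seq), in which a protein is pulled down and the RNA that comes with it is sequenced. The bait was the CNOT7 subunit of CCR4-NOT with a V5 tag and the D40A substitution, which impairs its nuclease activity. The cells were human embryonic kidney cells, labelled HEK293T on every sample and HEK293 in the text on the design, and every sample is labelled as cytoplasmic RNA. The RIP group held 3 libraries. The input group held RNA not subjected to the pull-down, 6 samples in the labels, of which 3 came from cells grown with doxycycline at 3 µg/mL for 24 h and 3 from cells without it. The table gave 3 input columns whose names fit either kind, so they are called input 1 to 3 with the treatment unknown. The labels do not say whether the RIP cells had doxycycline or what drove the tagged subunit. A pull-down from untagged cells was not analysed here.

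CCR4-NOT is a cytoplasmic complex that removes poly(A) tails from mRNAs made in the nucleus. Mitochondria keep a small circular genome in their matrix, transcribe both of its strands into long precursors and cut these at the tRNAs to release mRNAs and rRNAs. Most of the mRNAs come from the heavy-strand transcript, whereas MT-ND6 comes from the light-strand one. Most receive a short poly(A) tail from the mitochondrial poly(A) polymerase, which is known to be missing or rare on MT-ND6. Every protein they encode is a subunit of an oxidative phosphorylation complex, and these complexes also hold many subunits made from nuclear genes.

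Libraries held 37140622 to 40764899 reads in genes in RIP and 37290120 to 38918356 in input. Values are normalized counts, in which 1 read was worth 0.745 to 0.828 in RIP and 1.04 to 1.16 in input. A gene without reads therefore had a level of at most 2.24 to 3.49 normalized counts (3 reads), for counting error only. Many genes with few reads had none in RIP 2. Of 3565 genes with a mean of 5 to 20 reads in RIP 1 and RIP 3, 77.8% had no read in RIP 2, which matters below for the tRNAs. The same share was not computed for RIP 1 or RIP 3. Of the 15 tRNAs, 2, 12 and 1 had no read in RIP 1, 2 and 3. All 5 genes fixed as typical of these cells were present (input means of 307 to 28954 normalized counts for KRT8 and VIM). Of 6 markers of other cell types 1 had a row, ALB, with no read in any input and 13, 0 and 1 reads in RIP 1 to 3.

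Mitochondrially encoded RNA made up a large part of input and a small part of RIP. It took 18.6%, 22.7% and 26.6% of normalized counts in input 1, 2 and 3. In RIP 1, 2 and 3 it took 1.04%, 0.931% and 1.12%. The groups did not overlap, and the spread within them was small beside the gap: 22.7% ± 4.0 in input and 1.03% ± 0.0949 in RIP (SD, n = 3 each), a ratio of 21.98. Nearly all of it was mRNA, 22.7% of input and 1.02% of RIP, with tRNA at 0.00855% and 0.000775% and rRNA at 0.00557% and 0.00866%. These shares compare RNA recovered in the pull-down with input RNA, so their gap is not a difference in level between cells. In bulk libraries of this kind, fewer cells with an RNA and less of it per cell cannot be told apart.

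All 13 mRNAs were lower in RIP than in input (limma, adjusted p of 9.3e-09 to 3.3e-08 over all 16765 genes tested). Their log2 differences ran from -5.55 to -4.19, with a median of -4.87 beside -0.04 over all genes tested. The background was 21.2% of tested genes lower and 22.4% higher at an adjusted p under 0.05. In the 13 mRNAs every RIP library lay below every input, as in 27.3% of genes tested, while the reverse order held for 27.4%. The quasi-likelihood test of edgeR on recovered reads also called the 13 lower, against 20.5% of genes lower and 22.2% higher. The authors' deposited table called them lower too, against 19.9% lower and 20.6% higher there. Neither rRNA passed the limma test in either direction. Without RIP 2 the median of the mRNAs was again -4.87. Scaling each library to its total reads moved the median of all genes to 0.45 and the median of the mRNAs to -4.38. Calls over all genes were then 1655 lower and 6155 higher, against 3550 lower and 3758 higher with the deposited scaling, and the 13 mRNAs were still called lower.

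**Figure D1:**
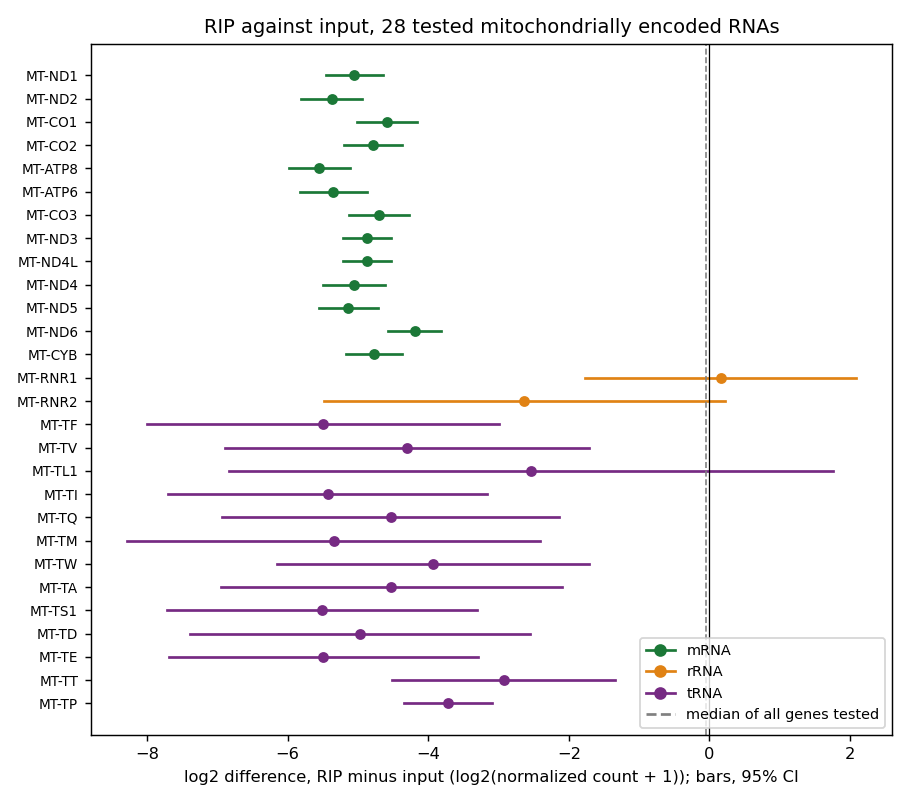
Log2 differences, RIP minus input, of the 28 mitochondrially encoded RNAs that passed the filter (points, limma on log2(normalized count + 1), n = 3 against 3) with 95% confidence intervals (bars). The mRNAs lie between -5.55 and -4.19 with short bars, the rRNA intervals include 0, and the tRNA bars are long. The dashed line is the median of all genes tested, -0.04.

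Complex I, which passes electrons from NADH to ubiquinone, takes 7 of its subunits from the mitochondrial genome. MT-ND1 (ENSG00000198888, chromosome MT, 3307 to 4262 in the RefSeq table of GRCh38.p14) had 20123, 18149 and 22196 normalized counts in RIP 1 to 3 and 518521, 677497 and 842783 in input 1 to 3. The lowest input lay far above the highest RIP library, a log2 difference of -5.05 (SE 0.19, limma adjusted p = 1.5e-08). MT-ND2 (4470 to 5511), a membrane subunit like MT-ND1, had 11637, 11386 and 14823 in RIP and 395057, 526461 and 678016 in input. Its difference, -5.38 (SE 0.20, limma adjusted p = 1.5e-08), was the lowest of the complex I subunits. MT-ND3 (10059 to 10404), a small subunit, had 2351, 2146 and 2486 in RIP and 54564, 67508 and 85653 in input (-4.87, SE 0.15). MT-ND4 (10760 to 12137), a proton-pumping subunit, was the most abundant member in input by normalized count, with 1158705, 1505065 and 1833193. In RIP it had 42588, 41029 and 49992, a log2 difference of -5.05 (SE 0.20). The proton-pumping subunit MT-ND5 (12337 to 14148) had 32910, 27014 and 34921 in RIP and 902463, 1115874 and 1341006 in input (-5.14, SE 0.19). Each of these mRNAs was separated between groups without overlap.

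MT-ND4L (10470 to 10766) shares a bicistronic mRNA with MT-ND4, and their reading frames overlap by 7 bases. It had 8684, 9219 and 9812 normalized counts in RIP and 216355, 282371 and 324609 in input (-4.87, SE 0.16, limma adjusted p = 9.3e-09). Its ratio to MT-ND4 was 0.204, 0.225 and 0.196 in RIP and 0.187, 0.188 and 0.177 in input. The ratio was thus 1.13 times higher in RIP on average, with no overlap between groups.

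MT-ND6 (ENSG00000198695, 14149 to 14673), the light-strand subunit of complex I, was the least abundant mRNA and had the smallest difference of the 13. It had 234, 205 and 242 normalized counts in RIP against 4136, 3704 and 4703 in input. That is a log2 difference of -4.19 (SE 0.17, 95% confidence interval -4.57 to -3.82, limma adjusted p = 2.4e-08), or an 18.4-fold ratio of means. Its neighbour MT-ND5 on the other strand had a 35.4-fold ratio. For every 1000 normalized counts of MT-ND5, MT-ND6 had 7.10, 7.59 and 6.94 in RIP and 4.58, 3.32 and 3.51 in input. The groups did not overlap. Without a stated strand setting for the counting, reads of MT-ND6 and of transcripts opposite to it cannot be told apart.

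Cytochrome b, MT-CYB (ENSG00000198727, 14747 to 15887), is the single mitochondrially encoded subunit of complex III, which hands electrons to cytochrome c. It had 29915, 26622 and 31226 normalized counts in RIP and 630182, 821888 and 980308 in input. The log2 difference was -4.77 (SE 0.19, limma adjusted p = 2.1e-08).

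Complex IV, cytochrome c oxidase, has its 3 catalytic core subunits from the mitochondrial genome. MT-CO1 (ENSG00000198804, 5904 to 7445), which holds the haem sites where oxygen is reduced, was the most abundant member in RIP, with 59319, 55723 and 57981 normalized counts. Input held 1108158, 1386783 and 1721719, a log2 difference of -4.58 (SE 0.20, limma adjusted p = 3.3e-08). MT-CO2 (7586 to 8269), which takes electrons from cytochrome c, had 34474, 30771 and 34517 in RIP and 719933, 936256 and 1139699 in input (-4.79, SE 0.19). MT-CO3 (9207 to 9990), the remaining core subunit, had 37428, 32480 and 36484 in RIP and 716477, 910874 and 1198032 in input (-4.70, SE 0.20). All 3 stood between MT-ND6 and the 2 ATP synthase mRNAs in the size of their difference.

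ATP synthase takes 2 membrane subunits from the mitochondrial genome, on a bicistronic mRNA whose reading frames overlap by 46 bases. MT-ATP8 (ENSG00000228253, 8366 to 8572) had 15744, 14959 and 18452 normalized counts in RIP and 574790, 785443 and 997817 in input. Its log2 difference, -5.55 (SE 0.20, limma adjusted p = 1.5e-08), was the lowest of the 28 genes tested and stood for a 48.0-fold ratio of means. MT-ATP6 (8527 to 9207), part of the proton channel, had 17996, 12680 and 21326 in RIP and 559043, 661836 and 893339 in input (-5.35, SE 0.22). The ratio of MT-ATP8 to MT-ATP6 was 0.875, 1.18 and 0.865 in RIP and 1.03, 1.19 and 1.12 in input, so these groups overlapped. The rule for reads in the shared bases was not stated.

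**Figure D2:**
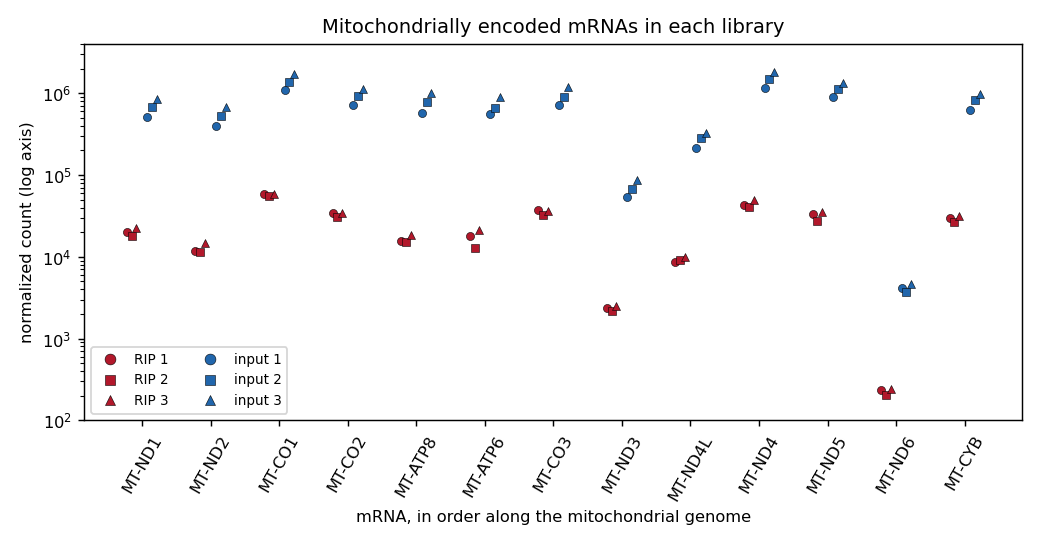
Normalized counts (log axis) of the 13 mitochondrially encoded mRNAs in the 3 RIP libraries (red) and the 3 input columns (blue), with 1 symbol per library. In each gene every input lies above every RIP library. MT-ND6 is the lowest in both groups, at 205 to 242 in RIP and 3704 to 4703 in input.

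Levels were also set per length. Per kilobase of the RefSeq gene, the input mean was highest for MT-ATP8 at 3797183 normalized counts, followed by MT-CO2 at 1362519 and MT-CO3 at 1201268. MT-ATP6, on the same bicistronic mRNA as MT-ATP8, had 1034860. MT-ND3 had 200121 and MT-ND6 had 7964. In the RIP mean MT-ATP8 was again highest, at 79153, beside 25454 for MT-ATP6, and MT-ND6 lowest, at 432. The gene of MT-ATP8 is 207 bases long, of which 46 are shared with MT-ATP6, and reads were 75 bases. The part of this in its value per kilobase was not tested, so its rank is not read as a level.

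The mix of mRNAs also differed between RIP and input, within the small amount recovered. MT-CO1 made up 18.9%, 19.7% and 17.3% of the 13 mRNAs in RIP 1 to 3 and 14.7%, 14.3% and 14.3% in input 1 to 3. The 3 cytochrome oxidase mRNAs together made up 41.9%, 42.1% and 38.6% in RIP and 33.7%, 33.4% and 33.7% in input. The RIP shares lay above every input share. MT-CYB had 9.55%, 9.43% and 9.34% in RIP and 8.34%, 8.49% and 8.14% in input, again without overlap. In the other direction, MT-ATP8 had 5.02%, 5.30% and 5.52% in RIP and 7.60%, 8.11% and 8.29% in input. MT-ND2 had 3.71%, 4.03% and 4.43% in RIP and 5.23%, 5.44% and 5.63% in input. MT-ATP6 had 5.74%, 4.49% and 6.38% against 7.40%, 6.84% and 7.42%. These shares lay below those of every input. MT-ND4L overlapped between groups, at 2.77% to 3.26% in RIP and 2.70% to 2.92% in input. Shares of 1 whole move together, so a higher share of one mRNA lowers the others, and no test was run on them.

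**Figure D3:**
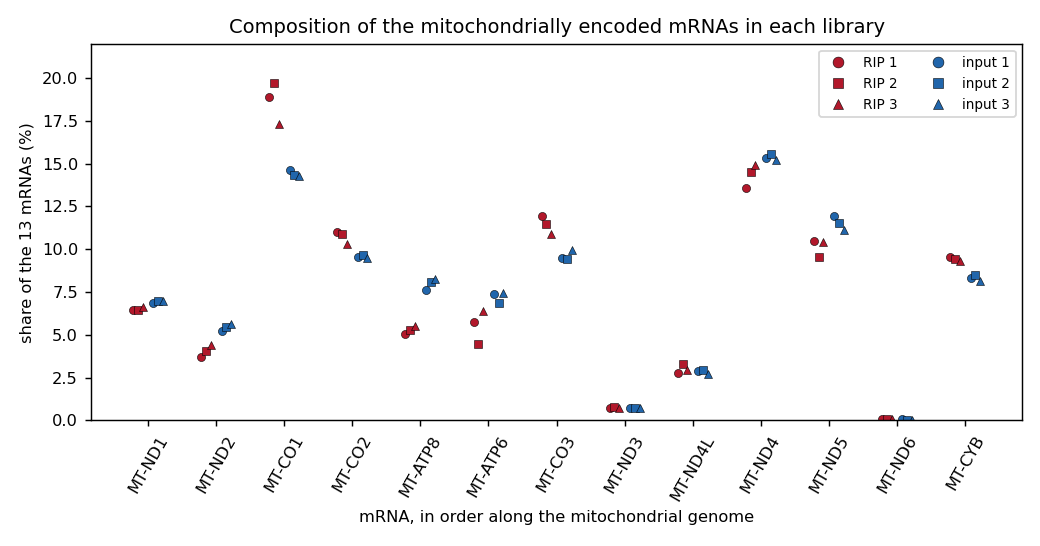
Share of each mRNA in the summed normalized counts of the 13 mitochondrially encoded mRNAs (%), for the 3 RIP libraries (red) and the 3 input columns (blue). MT-CO1 stands at 17.3% to 19.7% in RIP and 14.3% to 14.7% in input, and MT-ATP8 at 5.02% to 5.52% and 7.60% to 8.29%.

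The mitochondrial rRNAs did not share this pattern. MT-RNR1 (ENSG00000211459, chromosome MT, 648 to 1601), the 12S rRNA of the small mitochondrial ribosomal subunit, had 3388, 109 and 325 normalized counts in RIP and 592, 389 and 374 in input. RIP 1 was the highest of all libraries and RIP 2 the lowest, so the groups overlapped. The log2 difference was 0.16 (SE 0.88, 95% confidence interval -1.77 to 2.09, limma adjusted p = 0.90). MT-RNR2 (ENSG00000210082, 1671 to 3229), the 16S rRNA of the large subunit, had 3695, 17.1 and 434 in RIP and 1884, 1586 and 2327 in input. Again RIP 1 lay above every input and RIP 2 and RIP 3 below. Its log2 difference was -2.63 (SE 1.31, 95% confidence interval -5.49 to 0.22, limma adjusted p = 0.13). Tests on counts gave other sizes. For MT-RNR1 edgeR and the authors' deposited table both gave 1.5 and DESeq2 gave 1.47. For MT-RNR2 edgeR gave -0.47, the authors' deposited table -0.48 and DESeq2 -0.51, and none of the 3 called either rRNA. Without RIP 1 the log2 difference was -1.23 for MT-RNR1 (limma adjusted p = 0.033) and -4.43 for MT-RNR2 (limma adjusted p = 0.00031), and both were called lower. Without RIP 2 they were 1.25 and -0.59, and neither was called. In reads, the 2 rRNAs together had 8553, 169 and 969 in RIP 1 to 3 and 2372, 1730 and 2323 in input 1 to 3. All libraries had been depleted of rRNA per the labels, and the part of that step in these values was not tested.

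Mitochondrial tRNAs carry the amino acids for translation in the matrix and mark the cutting sites in the precursor. The 15 with a row had 277, 305 and 318 reads in all in RIP 1 to 3 and 3522, 2856 and 3485 in input 1 to 3. Scaled, their sum was 235 ± 12.1 normalized counts in RIP and 3663 ± 396 in input (SD, n = 3 each), a ratio of 15.6 without overlap. The genes are 66 to 75 bases long, no longer than the reads, so a read need not come from a mature tRNA. Of the 15, 13 passed the filter, 7 of them only through input. Such a tRNA could hardly fail to be lower in RIP, so the call of 12 tRNAs as lower describes them and supports nothing further.

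MT-TP (ENSG00000210196, 15956 to 16023), the tRNA for proline from the light strand, had the most reads of this class. It had 90, 194 and 145 reads in RIP and 1547, 1104 and 1221 in input, or 111 ± 35.1 and 1432 ± 177 normalized counts (SD, n = 3 each). The log2 difference was -3.72 (SE 0.29, limma adjusted p = 1.7e-06), a 12.9-fold ratio. Its heavy-strand neighbour MT-TT (15888 to 15953), for threonine, had 15, 71 and 14 reads in RIP and 99, 177 and 153 in input (-2.92, SE 0.73, limma adjusted p = 0.0060). MT-TW (5512 to 5579), for tryptophan, had 6, 40 and 2 reads in RIP and 84, 78 and 179 in input (-3.93, SE 1.02, limma adjusted p = 0.0076). In each of these 3 tRNAs RIP 2 was the highest RIP library and still lay below every input.

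The remaining 12 tRNAs had no read in RIP 2. MT-TF (577 to 647), the tRNA for phenylalanine at the head of the heavy-strand transcript, had 62, 0 and 28 reads in RIP and 663, 312 and 383 in input (-5.50, SE 1.15). MT-TD, for aspartate, had 33, 0 and 23 against 193, 176 and 349 (-4.97, SE 1.11). MT-TI, for isoleucine, had 14, 0 and 23 against 206, 202 and 331 (-5.43, SE 1.04). These 3 were separated from input in every library. With the zero of RIP 2 on a log scale the fit gave larger differences than edgeR on recovered reads, which gave -4.35 for MT-TF, -4.14 for MT-TD and -4.78 for MT-TI.

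The light-strand tRNAs MT-TQ, MT-TA, MT-TE and MT-TS1, for glutamine, alanine, glutamate and serine, had 9 to 19 reads in RIP 1 and RIP 3 and 73 to 231 in input. Their log2 differences were -4.53 (SE 1.10), -4.53 (SE 1.11), -5.49 (SE 1.01) and -5.51 (SE 1.01). MT-TV, for valine, had 7, 0 and 10 reads in RIP and 41, 100 and 77 in input (-4.30, SE 1.19). MT-TM, for methionine, had 0, 0 and 9 against 61, 40 and 154 (-5.35, SE 1.35). All 12 tRNAs called lower, including these, had adjusted p-values (limma) of 1.7e-06 to 0.011. In all 12 every RIP library lay below every input, as in 27.3% of genes tested. For those that passed the filter only through input, this order was nearly fixed beforehand.

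The calls on the rarer tRNAs leaned on the filter and on single libraries. With no filter 5 of the 15 were called (limma), while over all genes 2761 of 30956 were lower, against 3550 of 16765 in the main fit. Without input 3, 9 were called, with MT-TW, MT-TV and MT-TM lost (limma adjusted p = 0.061, 0.069 and 0.091), and without input 2 MT-TV was lost (limma adjusted p = 0.083). Over all genes 2972 of 16690 were lower without input 3 and 2881 of 16703 without input 2. Without RIP 2 the same number, 12, was called, beside 3719 of 16830 over all genes. The median over the 13 tested was then -3.79 instead of -4.53, since the zeros of RIP 2 no longer entered.

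MT-TL1, for leucine, overlapped between groups, with 2, 0 and 3 reads in RIP and 1, 23 and 26 in input (-2.54, SE 1.97, limma adjusted p = 0.33). MT-TY, for tyrosine, and MT-TC, for cysteine, did not pass the filter and are named in addition to the fixed rule, after their values were seen. MT-TY had 1, 0 and 1 reads in RIP and 19, 0 and 11 in input. MT-TC had no read in RIP and 0, 0 and 20 in input, so a difference was not detectable at this depth. The other 7 of the 22 tRNA genes of the RefSeq table were not analysed here.

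**Figure D4:**
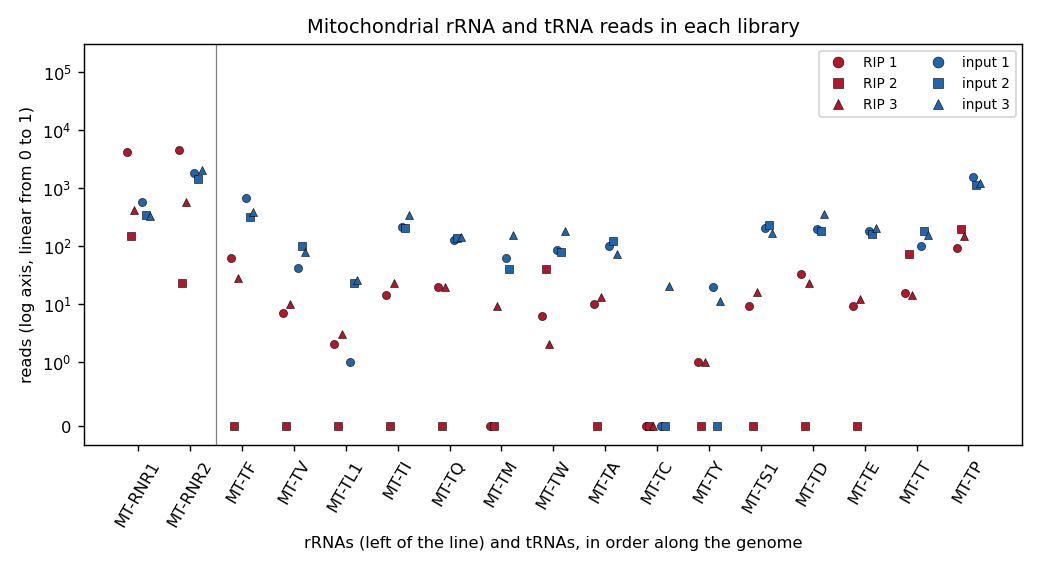
Reads (log axis, linear between 0 and 1) of the 2 mitochondrial rRNAs and 15 tRNAs in the RIP libraries (red) and input columns (blue). For the rRNAs RIP 1 is highest and RIP 2 lowest. For 12 of the tRNAs RIP 2 lies at 0, while input reaches 1547 reads for MT-TP.

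Copies of mitochondrial sequence lie in the nuclear genome as pseudogenes, and short reads can be shared with them. The table held 58 rows with such symbols, whose input means summed to 0.711% of those of the mitochondrial genes. MTATP6P1 and MTND2P28 made up 97.1% of that. MTATP6P1 had 1103, 1045 and 1805 normalized counts in RIP and 33428, 42101 and 46348 in input, a log2 difference of -4.98 (SE 0.20), beside -5.35 for MT-ATP6. MTND2P28 had 795, 372 and 858 in RIP and 20871, 27013 and 32456 in input (-5.38, SE 0.27), beside -5.38 for MT-ND2. In 32 of the 58 copies no RIP library had a read, but these copies had few reads or none in input as well. The highest of them by input mean, MTND5P11, had 8, 12 and 12 reads in input 1 to 3. Other copies had reads in RIP and none in input, such as MTND2P2 with 9 reads in RIP 1. The zeros in RIP are therefore not read as a lower level. Counting all 58 copies with the mitochondrial genes gave shares of 22.8% in input and 1.04% in RIP. Of 16737 other genes tested, 28 had a log2 difference at or below that of MT-ND6, and 8 of them were such copies. The rest were of other kinds, among them the small nuclear RNA RNU6ATAC (-5.57), RNY4 (-5.32) and the histone gene H3C13 (-4.80). RNU6ATAC thus lay below every mitochondrially encoded RNA, beside -5.55 for MT-ATP8.

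The same complexes hold subunits made from nuclear genes, whose mRNAs are translated in the cytosol. Of 72 such genes 71 passed the filter, and 68 were lower and 0 higher in RIP (limma), against a background of 21.2% and 22.4%. For complex I, 33 of 36 tested were lower, with a median log2 difference of -1.47, while the 7 mitochondrially encoded subunits ran from -5.38 to -4.19. Complex III had 9 of 9 lower and a median of -1.60, beside -4.77 for MT-CYB. Complex IV had 11 of 11 lower and a median of -2.26, beside -4.79 to -4.58. ATP synthase had 15 of 15 lower and a median of -1.73, beside -5.55 and -5.35.

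The ratio of summed mitochondrial to summed nuclear subunit counts put both genomes side by side within a library. For complex I it was 4.95, 4.14 and 4.32 in RIP and 56.6, 63.5 and 68.7 in input. For complex III it was 3.57, 2.56 and 2.72 against 24.6, 26.8 and 30.5. For complex IV it was 20.1, 18.8 and 13.9 against 92.1, 98.8 and 100.8. For ATP synthase it was 1.69, 1.20 and 1.51 against 17.3, 19.4 and 22.6. The ratio does not depend on how libraries are scaled. In every complex the RIP ratios lay below the input ratios, by 14.1, 9.24, 5.52 and 13.5 times in the order given, and no test was run on these sums.

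**Figure D5:**
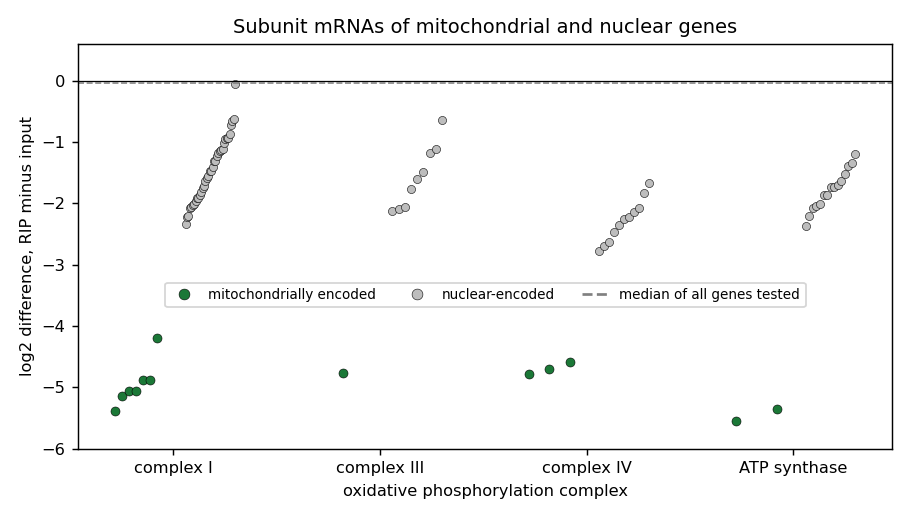
Log2 differences, RIP minus input, of subunit mRNAs from the mitochondrial genome (green) and from nuclear genes (grey) in complexes I, III, IV and ATP synthase, 1 point per gene tested. Mitochondrially encoded subunits lie at -5.55 to -4.19 and nuclear-encoded ones at -2.77 to -0.05.

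Nuclear genes that make, process, modify, translate or degrade mitochondrial RNA moved in both directions, as did the genes tested as a whole. Of 44 such genes 43 were tested, and 9 were lower and 14 higher in RIP (limma), with a median log2 difference of 0.03. Over all genes tested 21.2% were lower and 22.4% higher, with a median of -0.04. TUFM, the mitochondrial elongation factor Tu, was lower (-1.79, SE 0.16, limma adjusted p = 4.4e-06), as was LRPPRC, which stabilises the mitochondrial mRNAs (-1.08, SE 0.14, limma adjusted p = 7.7e-05). MTERF3, of the mitochondrial transcription termination factor family, was higher (1.21, SE 0.14, limma adjusted p = 2.7e-05). Those 3 had the smallest p of the list. Further members, chosen after their values were seen, were SLIRP, the partner of LRPPRC, at -1.48 (SE 0.20) and HSD17B10, a subunit of the mitochondrial RNase P, at -1.55 (SE 0.21). FASTKD5, which acts in the maturation of mRNA ends without a flanking tRNA, stood at 1.05 (SE 0.15), and the polymerase POLRMT at 0.37 (SE 0.16) did not pass the test (limma adjusted p = 0.084). With total-count scaling 4 genes of the list were lower and 24 higher, and over all 16783 genes then tested 1655 were lower and 6155 higher.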

How the data were processed

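The members and gene lists were chosen with earlier results of these data known. Per the submitters' processing notes, STAR, featureCounts and DESeq2 were used with the build GRCh38, without versions. Annotation, strandedness and treatment of multi-mapped reads were not given in the sources. As a signal, the authors deposited read counts scaled by a size factor for each library. Dividing a column by its smallest value gave whole reads for 100% of values (tolerance 0.01). The deposited table also gives, per the file headers, a log2 fold, a shrunken log2 fold, the SE, a Wald score, a p-value and an adjusted p-value by DESeq2, and a mean normalized count over 9 libraries. Its folds matched the log2 ratio of the RIP and input column means within 0.00955 for 15490 genes, so these input columns are the ones the authors compared.

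Genes with a mean of at least 10 normalized counts (16765) were fitted with limma 3.58.1 (R 4.3.3, eBayes with trend) on log2(value + 1), 3 RIP against 3 input libraries, with Benjamini-Hochberg adjustment over all of them and a threshold of 0.05. On this scale the pseudocount understates the change of low genes, whereas a single library at 0 can enlarge it beside a ratio of means. The fit was tested on simulated data. edgeR 4.0.16 (quasi-likelihood) on recovered reads called 3435 genes lower and 3714 higher, and DESeq2 1.42.0 called 3705 and 3771. Separate cultures are not mentioned in the labels, and p-values therefore reflect library-to-library spread that may be technical. Chi-square per degree of freedom between libraries of a group was 25.6 to 67.9, so none was a copy of another. By rule, every mRNA and rRNA with an MT- symbol was named, every such tRNA that passed the filter, and the 3 nuclear factors with the smallest p. All 30 were matched to RefSeq (GRCh38.p14) positions, and no sequence of them is printed. Alternatives covered tool, scaling, pseudocount, filter and each library in turn. Counting the nuclear copies with the members and a block on the column numbers were added after seeing the data.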

Additional observations from a re-analysis of the deposited data

How the results depend on the processing

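Among the 17 alternatives to the fit, the 13 mRNAs were called lower in each, and their median log2 difference stayed between -5.04 and -4.74 except under total-count scaling (-4.38). Genes called lower among the 30 numbered 25, and 22 to 27 when each library was left out in turn (12 and 9 to 12 for tRNAs, 0 and 0 to 2 for rRNAs). Over all genes 3550 were lower, and 2881 to 3719 with a library left out. Some of the tRNAs among the 25 passed the filter only through input, so their calls describe them and support nothing further. The tRNA count was 5 with no filter, and 6 at a mean of at least 100, where 6 were tested. Over all genes 2761 of 30956 were lower with no filter and 3637 of 12370 at a mean of at least 100. Without RIP replicate 1 the rRNA count was 2, and MT-RNR1 turned to -1.23, in a range of -1.23 to 1.25 over the left-out libraries. For the 0 rRNAs called lower, edgeR, DESeq2 and the authors' deposited table also gave 0, and neither had an unadjusted p under 0.05 in limma. The authors' deposited table also called MT-TL1 (-3.85, DESeq2 adjusted p = 0.030). Left-out libraries gave medians of the mRNAs of -5.04 to -4.74, shares of 0.987% to 1.08% in RIP and 20.7% to 24.7% in input, and 62 to 68 nuclear subunits lower. Nuclear subunits called lower numbered 58 under total-count scaling and 57 with no filter, against 68 in the main fit. Under total-count scaling 25 of 35 tested were lower for complex I, with a median of -0.98, and 7 of 9 for complex III. Of 221 values of single mRNAs all kept direction and call, and of 211 tRNA values 11 lost and 1 gained the call. Over all genes, total-count scaling gave 1655 lower and 6155 higher against 3550 and 3758. With a replicate block on the numbers in the column names, 25 of the 30 genes were again lower (3925 and 4053 over all genes) and no call on them changed. Columns of the same number deviated together weakly (r of 0.0488 to 0.0869 over 16765 genes), each most with its own number. Between columns of different numbers r was -0.0463 to -0.0187. Whether columns of 1 number are pairs is not known, and the main fit did not treat them as pairs. Depth limits the tRNAs, at 0 to 194 reads in RIP.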

Other observations

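The deposited mean over 9 libraries, less the 6 columns, gives a mean for the remaining 3 input libraries, with no SD. Mitochondrially encoded RNA made up 18.5% of it, next to the 18.6% of the lowest input column. Its mRNAs lay above the RIP mean by 10.2-fold (MT-ND6, at 2318 normalized counts) to 36.8-fold (MT-ND1, at 741609). MT-ND1 was the single mRNA with more in these inputs than in the mean of the 3 columns (679600). MT-ATP8 and MT-ATP6 had 478570 and 450756, against 786017 and 704739 in the columns. MT-TP had 504 against 1432, while MT-TD had 698 against 269. MT-RNR1 and MT-RNR2 had 558 and 1041.

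Across the 13 mRNAs the log2 ratio of RIP to input had a Spearman rho of 0.10 and a Pearson r of 0.13 with log2 gene length, and 0.24 and 0.29 without MT-ND6. With log2 input level per kilobase it had -0.17 and -0.66, and 0.056 and -0.29 without MT-ND6. With position along the genome it had 0.34 and 0.41, and 0.18 and 0.20 without MT-ND6. These describe genes of 1 genome in shared libraries, which are not independent, and carry no test.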
